A study of Mus musculus with 9 samples.

Results

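The peroxiredoxin family was followed across testis libraries of mice that carry or lack protamine 2 (Prm2), a protein that replaces histones in the sperm nucleus. Its members were taken by gene symbol from the gene table (Prdx1, Prdx2, Prdx3, Prdx4, Prdx5 and Prdx6), which gave 6 of the 38685 genes and loci in it. All 6 passed the filter on low counts, with 14893 genes in all. The groups were 3 libraries each from testes of Prm2+/+ (WT), Prm2+/- (Prm2-heterozygous) and Prm2-/- (Prm2-deficient) males, all of the strain C57BL/6. The Prm2-deficient line was made by CRISPR/Cas9 gene editing in oocytes, so the allele is present in every cell and not in germ cells alone. The age of the males is not given in the labels. The paper describes the 3 libraries per genotype as biological replicates, while the labels do not state that each came from a separate male. The p-values thus measure the spread between libraries.

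Peroxiredoxins are thiol peroxidases that reduce hydrogen peroxide, organic hydroperoxides and peroxynitrite. A peroxidatic cysteine in the active site is oxidized by the peroxide and is then reduced again, in most members by thioredoxin and in Prdx6 by glutathione. In the testis and in sperm these enzymes are known for limiting peroxide damage to membranes and DNA and for shaping peroxide signals during sperm maturation.

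The members differ in how the oxidized cysteine is resolved. Prdx1 and Prdx2 (cytosol), Prdx3 (mitochondria) and Prdx4 (endoplasmic reticulum and secreted) are typical 2-Cys enzymes, which form a disulfide between the subunits of a dimer. Prdx5, found in mitochondria, peroxisomes and cytosol, is the atypical 2-Cys enzyme with a disulfide inside 1 subunit. Prdx6 is the 1-Cys enzyme and also has phospholipase A2 activity. The coding sequence around the peroxidatic cysteine is shown to compare the members at the residue that they share. Each window holds 60 bases of coding sequence, read 5′ to 3′ on the gene's strand from the GENCODE annotation of GRCm38 and joined across exons, with the cysteine codon in capitals.
Prdx1: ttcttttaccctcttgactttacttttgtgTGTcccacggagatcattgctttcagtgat
Prdx2: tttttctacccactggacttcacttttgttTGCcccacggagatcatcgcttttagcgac
Prdx3: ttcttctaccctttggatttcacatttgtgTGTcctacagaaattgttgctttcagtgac
Prdx4: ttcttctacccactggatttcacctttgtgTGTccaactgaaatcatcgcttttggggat
Prdx5: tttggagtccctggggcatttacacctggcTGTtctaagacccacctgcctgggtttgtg
Prdx6: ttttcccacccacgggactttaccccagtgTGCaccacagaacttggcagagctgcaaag
Prdx6b: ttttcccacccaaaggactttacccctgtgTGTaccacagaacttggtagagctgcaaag
The Prdx1 window lies at chr4:116691793-116691852 on the plus strand in exon 3, and that of Prdx2 at chr8:84970453-84970512 on the plus strand in exon 2. The other members are on the minus strand. Their windows span chr19:60870100-60871439 (Prdx3, exons 3 and 4), chrX:155332433-155334857 (Prdx4, exons 2 and 3), chr19:6907653-6908020 (Prdx5, exons 1 and 2) and chr1:161247341-161247400 (Prdx6, exon 2). The windows of Prdx1 to Prdx4 shared 45 to 49 of 60 bases with each other, and that of Prdx5 shared 23 to 26 with those 4. The Prdx6 window shared 29 to 34 bases with the 4 typical members. The last line is Prdx6b, an intronless copy of Prdx6 at chr2:80292472-80295356 on the plus strand, which is no member here and whose window shared 55 of 60 bases with that of Prdx6.

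The libraries held between 3629929 and 4490411 recovered counts. The mean of Prm2 was 33046 ± 5732 normalized counts (SD, n = 3) for Prm2+/+, while Prm2+/- testes had 31891 ± 2287 and Prm2-/- testes 37810 ± 4344, so these 3′ counts do not check the genotype labels. Spermatid markers were abundant in each group: the summed level of 5 elongating spermatid markers was 201710 to 218270 in Prm2+/+, 197184 to 210457 in Prm2+/- and 194509 to 204019 in Prm2-/- libraries. Of 5 markers of the epididymal epithelium, Lcn5 and Lcn8 were at 0 in all 9 libraries and the sum did not exceed 13.3. In whole tissue, fewer cells of a type and less RNA per cell cannot be told apart.

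Prdx4, Prdx1 and Prdx5 were the abundant members, Prdx2 was intermediate and Prdx3 was low, whereas Prdx6 took either a high or a low level. Over the 9 libraries, the mean level was 840 normalized counts for Prdx4, 692 for Prdx1, 456 for Prdx5, 160 for Prdx2 and 34.3 for Prdx3. Prdx4 was thereby above 93.8% of the tested genes, and Prdx3 was above 32.1% of them. Per kilobase of annotated exon the means were 399 for Prdx4, 227 for Prdx1, 213 for Prdx5, 52.3 for Prdx2 and 23.2 for Prdx3, although reads from the 3′ end do not scale with length. The order Prdx4, Prdx1, Prdx5, Prdx2, Prdx3 held in each of the 9 libraries on the count scale. On the per-kilobase scale Prdx1 was above Prdx5 in only 6 of 9 libraries, so these neighbours were not separated beyond their spread, whereas each other neighbouring pair kept its order in 9 of 9.

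**Figure D1:**
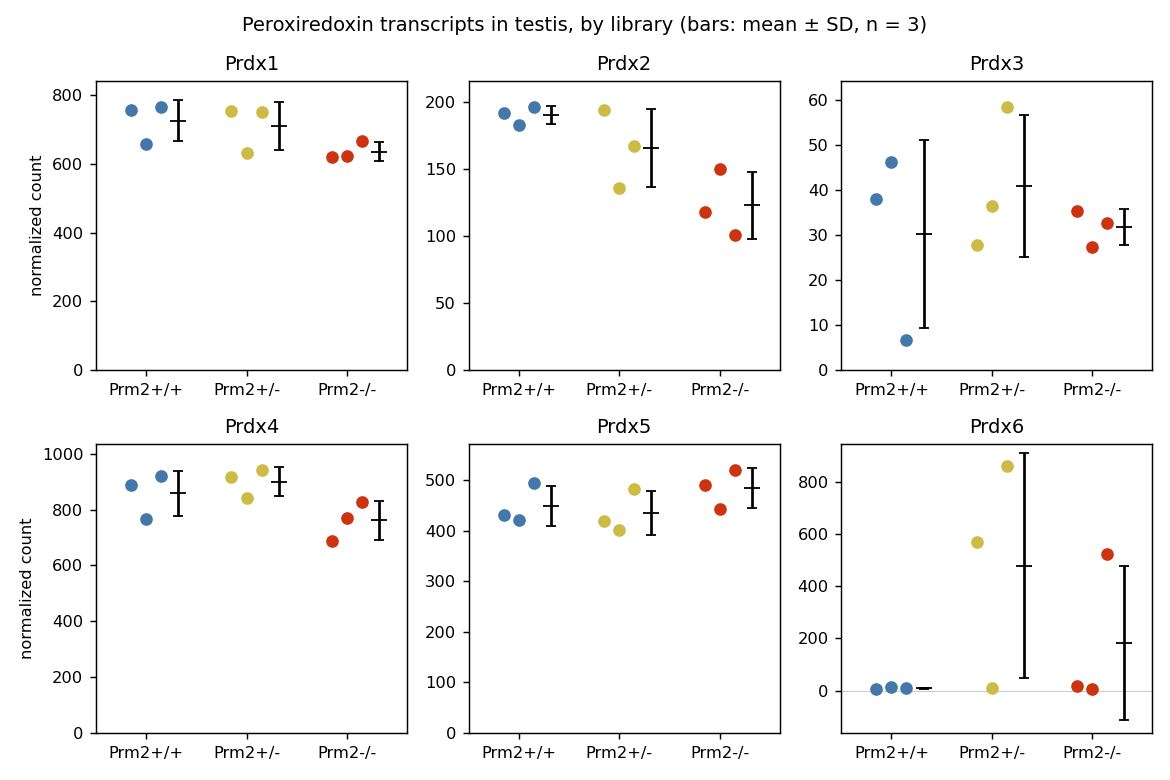
Normalized counts of the 6 peroxiredoxins in each library (points; vertical axes start at 0 except for Prdx6, whose SD bar passes below it), by genotype, with the mean and SD of 3 libraries beside them. The 3 Prm2-/- libraries sit below the 3 Prm2+/+ libraries for Prdx2, and Prdx6 is at 522 or more in 3 libraries and at 19.0 or less in the other 6.

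None of the 6 peroxiredoxins passed the test in any of the 3 comparisons (limma with Benjamini-Hochberg adjustment, threshold 0.05, and an absolute log2 fold change, abbreviated LFC, above 0.5). Prdx2 had the lowest LFC in Prm2-/- against Prm2+/+ testes, where its fitted level was 0.641 of that in Prm2+/+, and the 2 groups did not overlap. Prdx1 and Prdx4 were also lower on average in Prm2-/- than in Prm2+/+ testes and Prdx5 was higher. For each of these genes the 2 groups overlapped. For Prdx3 and Prdx6 the spread between libraries was wide, and so were the intervals of their LFCs.

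The comparison of Prm2-/- with Prm2+/+ testes asks whether the loss of both Prm2 alleles goes with a change in these antioxidant transcripts. Of all tested genes, 0.181% were called in it in either direction (23 higher and 4 lower), and 0 of the 6 members were. At an unadjusted p under 0.05 were 1 of 6 members and 7.33% of all genes. The edgeR and DESeq2 fits called 0 members as well, with 1 and 2 members at an unadjusted p under 0.05. The median LFC of the members was -0.03, beside 0.02 over all tested genes. In Prm2+/- against Prm2+/+ testes, which differ by 1 allele, 0.0806% of genes and 0 members were called, with 0 members and 4.24% of genes at an unadjusted p under 0.05 and a median member LFC of 0.02 beside 0.01 over all genes. The edgeR fit also called 0 members there, whereas DESeq2 called 1, Prdx6, described below with its values. In Prm2-/- against Prm2+/- testes, 0.175% of genes and 0 members were called, by limma as by edgeR and DESeq2, and 2 members (Prdx2 and Prdx4) and 5.44% of genes had an unadjusted p under 0.05. The median LFC was -0.27 for the members and -0.01 for all genes. The 3 comparisons share their groups, so they are not independent.

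**Figure D2:**
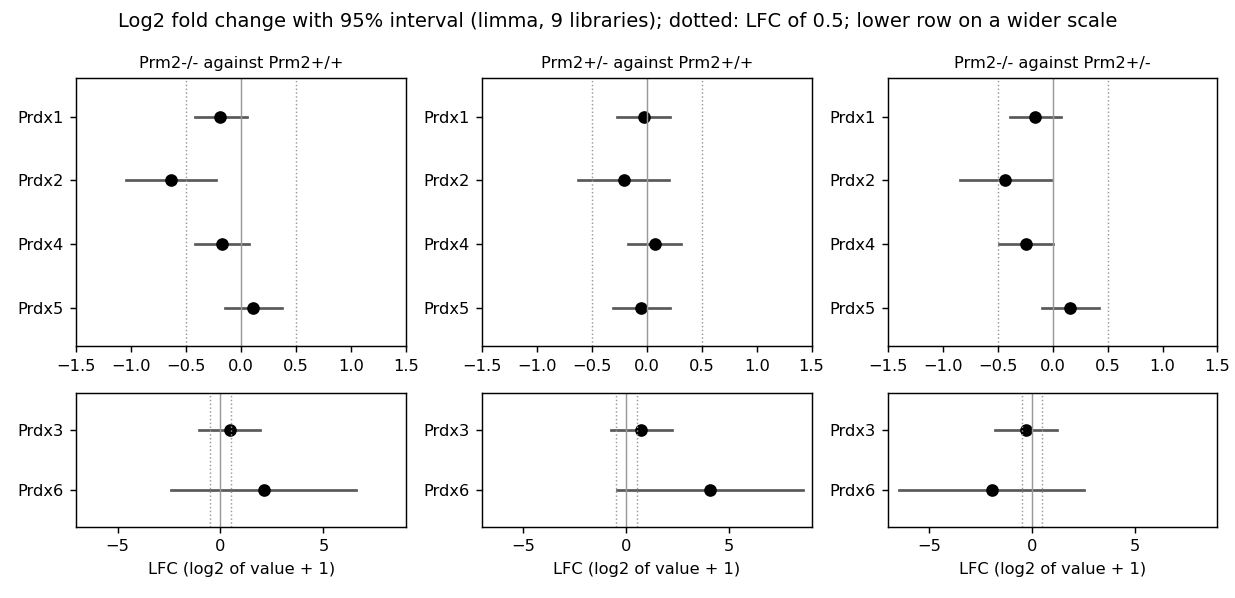
LFC of each member on the log2 (normalized count + 1) scale (horizontal axes; point, limma estimate over 9 libraries; line, 95% interval) for the 3 comparisons, with Prdx3 and Prdx6 on a wider axis in the lower row. The interval of Prdx2 in Prm2-/- against Prm2+/+ runs from -1.05 to -0.23, whereas that of Prdx6 runs from -2.40 to 6.60.

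Prdx2, the cytosolic enzyme best known from red blood cells, lies at chr8:84969587-84974834 on the plus strand (ENSMUSG00000005161). Its normalized counts were 192, 183 and 196 in the Prm2+/+ libraries 1 to 3, 194, 136 and 167 in the Prm2+/- libraries and 118, 150 and 101 in the Prm2-/- libraries. Every Prm2-/- library was below every Prm2+/+ library, and the Prm2+/- values reached from the upper Prm2+/+ range to the upper Prm2-/- range. The group means were 190 ± 6.34 in Prm2+/+, 166 ± 28.9 in Prm2+/- and 123 ± 24.8 in Prm2-/- testes (SD, n = 3). Counting error was 7.39% of a Prm2+/+ value, so the Prm2+/+ spread of 3.33% was below it, and the Prm2-/- spread was 20.2%.

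The LFC of Prdx2 in Prm2-/- against Prm2+/+ was -0.64 ± 0.18 (SE), with a 95% interval of -1.05 to -0.23. With limma its adjusted p was 0.494 (unadjusted p = 0.00705), so the difference did not pass the correction over all genes. Groups did not overlap, with Prm2-/- lower, for 7.10% of all tested genes, and 3.36% of all genes were lower at an unadjusted p under 0.05. Against Prm2+/- the Prm2-/- level was lower by -0.43 on the log2 scale (95% interval -0.84 to -0.02, limma adjusted p = 0.893), and those groups overlapped. The Prm2+/- level differed from Prm2+/+ by an LFC of -0.21 (95% interval -0.63 to 0.20). Leaving out 1 library at a time moved the first of these LFCs between -0.79 and -0.51, with adjusted p from 0.435 to 0.892.

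2 genes on the minus strand overlap Prdx2, one at each end, and the strand setting of the counting is not given in the sources used here, so reads in the shared stretches cannot be assigned to one strand. Rnaseh2a, which codes for the catalytic subunit of ribonuclease H2, shares 181 bp with the start of Prdx2. This stretch is the start of both genes, whereas the reads came from 3′ ends. The 300 bases around the start of Prdx2 (RefSeq, GRCm38.p6, chr8:84969372-84969671, plus strand) all lie inside the annotated Rnaseh2a gene. Capitals mark the 85 bases that are also inside the annotated Prdx2 gene.
Prdx2 promoter: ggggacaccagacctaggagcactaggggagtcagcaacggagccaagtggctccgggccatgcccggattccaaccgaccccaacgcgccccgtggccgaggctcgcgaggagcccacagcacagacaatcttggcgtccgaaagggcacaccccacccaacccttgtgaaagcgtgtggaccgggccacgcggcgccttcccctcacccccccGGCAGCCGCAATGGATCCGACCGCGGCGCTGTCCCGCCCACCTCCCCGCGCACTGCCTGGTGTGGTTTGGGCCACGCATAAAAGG
Rnaseh2a counted 1560, 1629 and 2245 in Prm2+/+, 1276, 1240 and 1275 in Prm2+/- and 1147, 1459 and 978 in Prm2-/- libraries. Its LFC in Prm2-/- against Prm2+/+ was -0.60 ± 0.18 (limma adjusted p = 0.522). These groups did not overlap, with Prm2-/- lower, as for 7.10% of all tested genes. In Prm2+/- against Prm2+/+ the LFC of Rnaseh2a was -0.50 (limma adjusted p = 0.842). Every Prm2+/- library was also below every Prm2+/+ library for Rnaseh2a, as for 4.56% of all tested genes, with an LFC of -0.10 between the edited groups, whereas the Prdx2 values of Prm2+/- overlapped those of Prm2+/+. Junb, a subunit of the AP-1 transcription factor, shares 351 bp with the 3′ end of Prdx2 and was listed at 0 in all 9 libraries. These 351 bp also hold the 3′ end of Junb, and the reads came from 3′ ends. Whether reads of Junb were counted for Prdx2 was not tested. The peritubular cell markers (4 of 4 in the table, 3 past the filter, none at 0 in all libraries) summed to 293 to 325 in Prm2+/+ libraries. Their sum was 254 to 277 in Prm2+/- and 226 to 271 in Prm2-/- libraries. Both of these groups lay below Prm2+/+, whereas the Prdx2 values of Prm2+/- overlapped those of Prm2+/+. Single tested genes lay below Prm2+/+ without overlap in 4.56% of cases for Prm2+/- and 7.10% for Prm2-/-. The red blood cell markers (5 of 5, none at 0 in all libraries) summed to 676 to 1188, 911 to 1123 and 804 to 1264, with overlapping groups. Among the marker sums of the other cell types, only that of spermatogonia lay apart between Prm2+/+ (191 to 197) and Prm2-/- libraries (199 to 214). Prm2-/- was higher there, as for 6.92% of single tested genes. The part of the 2 overlapping genes and of peritubular or other cells in the Prdx2 values was not tested.

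Prdx1, the other cytosolic member and a target of the oxidative stress regulator NRF2, lies at chr4:116685544-116700822 on the plus strand (ENSMUSG00000028691). It was counted at 756, 657 and 765 in Prm2+/+, at 754, 631 and 750 in Prm2+/- and at 619, 623 and 667 in Prm2-/- libraries. All 3 Prm2-/- values were at or below 667, but library 2 of each other genotype lay in the same range. The means were 726 ± 60.0, 712 ± 69.9 and 637 ± 26.7 (SD, n = 3), and the LFC of Prm2-/- was -0.19 against Prm2+/+ (95% interval -0.42 to 0.05, limma adjusted p = 0.724) and -0.16 against Prm2+/- (-0.39 to 0.08, adjusted p = 0.977). Prm2+/- against Prm2+/+ gave -0.03 (-0.27 to 0.21). For this gene the intervals of the comparisons with Prm2-/- thus leave room for a fall of up to 0.42 on the log2 scale and for little rise.

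A search of the RefSeq promoters (250 bases before to 50 after the start) for TGACNNNGC, the core letters of the antioxidant response element, on both strands found 1 match in Prdx1 and 0 in Prdx2, Prdx3, Prdx4 and Prdx5. Of all 32851 promoters of this length, 12.4% held a match. A match describes letters and not binding, and Prdx6 was not searched.

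Prdx4, the member of the secretory pathway that helps to form disulfides in folding proteins, lies on the X chromosome (chrX:155323918-155340754, minus strand, ENSMUSG00000025289). Its counts were 890, 766 and 919 in Prm2+/+, 917, 842 and 942 in Prm2+/- and 687, 771 and 826 in Prm2-/- libraries. The 3 Prm2-/- libraries were all below the 3 Prm2+/- libraries but overlapped with Prm2+/+. With means of 859 ± 81.3, 901 ± 52.0 and 761 ± 69.7 (SD, n = 3), the LFC of Prm2-/- was -0.24 against Prm2+/- (95% interval -0.49 to -0.00, limma adjusted p = 0.916) and -0.17 against Prm2+/+ (-0.42 to 0.07, adjusted p = 0.746). In the first of these comparisons, 7.25% of all tested genes had groups that did not overlap with Prm2-/- lower. Prm2+/- against Prm2+/+ gave 0.07 (-0.17 to 0.31).

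Prdx3, the enzyme of the mitochondrial matrix, lies at chr19:60864051-60874556 on the minus strand (ENSMUSG00000024997) and was the least abundant of the typical members. It was counted at 38.0, 46.1 and 6.63 in Prm2+/+, at 27.7, 36.5 and 58.3 in Prm2+/- and at 35.3, 27.4 and 32.7 in Prm2-/- libraries. Prm2+/+ library 3 stood alone below the others, 3.72-fold under its nearest neighbour on the log2 (value + 1) scale, and rested on 6 recovered counts. The means were 30.2 ± 20.8, 40.8 ± 15.8 and 31.8 ± 4.04 (SD, n = 3).

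The LFC of Prdx3 in Prm2-/- against Prm2+/+ was 0.44 (95% interval -1.06 to 1.93, limma adjusted p = 0.864), and in Prm2+/- against Prm2+/+ it was 0.73 (-0.76 to 2.22, adjusted p = 0.842). Without Prm2+/+ library 3 these became -0.39 and -0.10, so that 1 library set the sign of both. Prm2-/- against Prm2+/- gave -0.29 (-1.79 to 1.20). The spread of Prdx3 between Prm2+/+ libraries was 68.9% of the mean, against a counting error of 18.4%.

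Prdx5, the atypical 2-Cys member, lies at chr19:6906697-6910106 on the minus strand (ENSMUSG00000024953). Its counts were 431, 421 and 494 in Prm2+/+, 420, 401 and 483 in Prm2+/- and 491, 442 and 520 in Prm2-/- libraries. Library 3 was the highest of each genotype, and all 3 groups overlapped. Prm2-/- differed from Prm2+/+ by an LFC of 0.11 (95% interval -0.15 to 0.37, limma adjusted p = 0.799) and from Prm2+/- by 0.16 (-0.10 to 0.42, adjusted p = 0.977), and Prm2+/- differed from Prm2+/+ by -0.05 (-0.31 to 0.21).

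Trmt112, which codes for a cofactor of RNA and protein methyltransferases, overlaps the start of Prdx5 by 409 bp on the plus strand. It was counted at 12.4, 175 and 12.2 in Prm2+/+, at 203, 172 and 11.5 in Prm2+/- and at 34.4, 24.4 and 186 in Prm2-/- libraries. Trmt112 was thus high in 4 libraries and low in 5, whereas Prdx5 stayed between 401 and 520 in all 9.

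Prdx6, the 1-Cys member, lies at chr1:161240112-161251219 on the minus strand (ENSMUSG00000026701) and was the most variable of the family. It was counted at 7.60, 11.8 and 8.84 in Prm2+/+, at 568, 9.13 and 860 in Prm2+/- and at 19.0, 7.10 and 522 in Prm2-/- libraries. The 3 high libraries comprised 2 of 3 Prm2+/- and 1 of 3 Prm2-/- libraries, and the lowest of them was 27.4-fold above the highest of the 6 low libraries. No library lay between these levels, so group means and SDs describe Prdx6 poorly. A gap of at least 8-fold between neighbouring libraries on the log2 (value + 1) scale, wider than the range on either side of it, was found in 8.19% of all tested genes (1220 genes).

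The LFC of Prdx6 in Prm2+/- against Prm2+/+ was 4.05 (95% interval -0.45 to 8.56), with a limma adjusted p of 0.842. Prm2-/- against Prm2+/+ gave 2.10 (-2.40 to 6.60, adjusted p = 0.784), which became 0.31 without Prm2-/- library 3 and 3.32 without Prm2-/- library 2, and was 4.27 with edgeR and 4.28 with DESeq2 over 9 libraries. Prm2-/- against Prm2+/- gave -1.96 (-6.46 to 2.54, adjusted p = 0.989). It lay between -1.09 and -0.74 without Prm2+/- library 1, Prm2+/- library 3 or Prm2-/- library 2, and was -3.99 without Prm2+/- library 2 and -3.74 without Prm2-/- library 3. The calls depended on the tool: for Prm2+/- against Prm2+/+, DESeq2 on the recovered counts of 9 libraries gave an LFC of 5.67 with an adjusted p of 0.0357, and edgeR gave 5.66 with an adjusted p of 0.962. Prm2+/- library 2, at 9.13, did not share the high level of the other Prm2+/- libraries, and without it the limma LFC was 6.09 (adjusted p = 0.900). Without Prm2+/- library 1 or 3 it was 3.19 or 2.89.

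The intronless copy Prdx6b has a coding sequence that is 92.9% identical to that of Prdx6 (624 of 672 bases), which makes shared reads a question for this pair. Only 7 of 2338 words of 50 bases in the longer Prdx6 transcript occurred in Prdx6b, and 0 of 251 in its last 300 bases, where 3′ reads start. Prdx6b was counted at 2148, 2083 and 2665 in Prm2+/+, at 1980, 2037 and 2269 in Prm2+/- and at 2044, 2000 and 2095 in Prm2-/- libraries. It was therefore steady, with an LFC of -0.16 in Prm2-/- against Prm2+/+ (limma adjusted p = 0.750), and showed no gap where Prdx6 did. How the mapped reads were divided between the pair was not tested. The rows of the members also carried locus names given by StringTie (100% of them). How counts were assigned within such a locus, and whether this set the levels of Prdx6, was not tested either. The values of Prdx6 therefore remain uncertain.

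**Figure D3:**
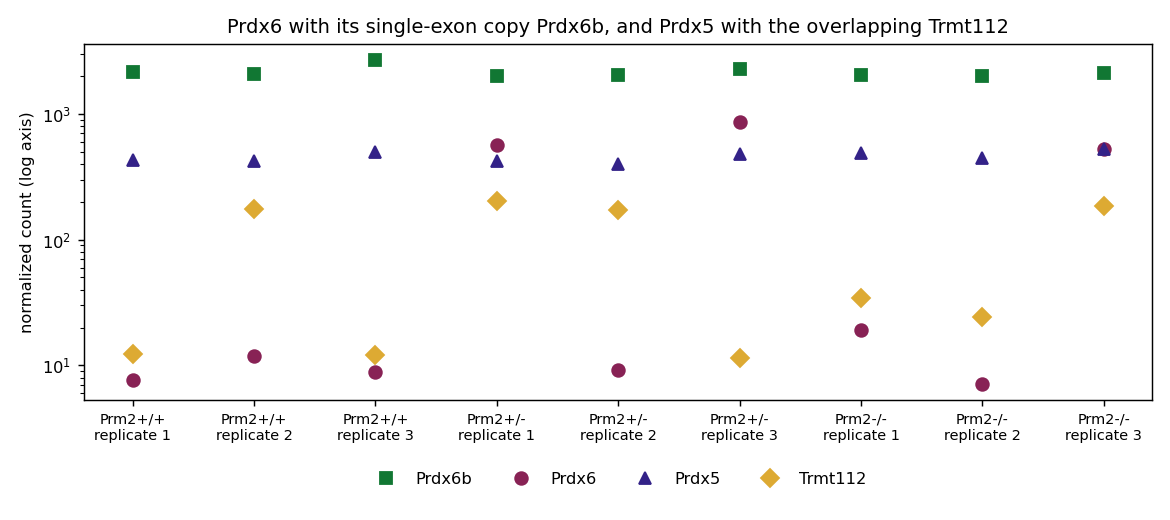
Normalized counts (log axis) in each of the 9 libraries for Prdx6 and its intronless copy Prdx6b, and for Prdx5 and the overlapping gene Trmt112. Prdx6 sits at 522 to 860 in 3 libraries and at 7.10 to 19.0 in 6, Prdx6b stays between 1980 and 2665 and Prdx5 between 401 and 520.

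Summed over Prdx1 to Prdx5, the family total in normalized counts was 2254 ± 160 (SD, n = 3) for Prm2+/+, 2254 ± 184 for Prm2+/- and 2037 ± 100 for Prm2-/- testes. With Prdx6 the sums were 2263 ± 158, 2733 ± 616 and 2220 ± 389, so Prdx6 set most of the spread in the 2 groups that held high libraries.

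Prdx1 and Prdx4 varied together over the libraries by Pearson r, whereas their rank correlation did not pass the correction. Of 10 pairs among Prdx1 to Prdx5, 4 had a Pearson r above 0, and 1 passed the correction: for Prdx1 and Prdx4, r was 0.87 over 9 libraries (exact permutation p = 0.00249, adjusted over the pairs 0.0249), with Spearman's rho at 0.80 (exact permutation p = 0.0138, adjusted 0.107). Without the 2 libraries farthest from the median of Prdx1 r was 0.85, and as deviations from the genotype means it was 0.84. Among all other tested genes, 0.222% had an r with Prdx1 at or above 0.87. Prdx1 and Prdx2 reached r = 0.68 (exact permutation p = 0.0442, adjusted 0.221; rho 0.77, exact permutation p = 0.0214, adjusted 0.107), but r was 0.36 within genotypes. The remaining pairs had adjusted p of 0.410 or more. Prdx6 was left out because its libraries fell into 2 clusters. Prdx1, which was kept, also had 4 libraries above the other 5, by a gap of only 1.12-fold that was wider than the range on either side.

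The genes whose pattern over the 9 libraries was closest to each member, by Pearson r of log2 (value + 1), are given as a description. They were Map1s (0.982) and 1700087M22Rik (0.966) for Prdx1, and Rnf148 (0.960) and 2810002D19Rik (0.959) for Prdx2. Map1s ranged from 6.39 to 80.7 and 1700087M22Rik from 0 to 29.5, while Prdx1 ranged only from 619 to 765. For Prdx3 the closest genes were Gtf2a1 and Hmbox1 (0.990 each). Both were also lowest in Prm2+/+ library 3, at 115 for Gtf2a1 and 9.94 for Hmbox1. Gtsf1 (0.960), which codes for a protein of the piRNA pathway, and D130020L05Rik (0.944) were closest to Prdx4. Igfbp6 (0.969) and Snrpd2 (0.934) were closest to Prdx5. For Prdx6, Shtn1 (0.901) and Osbpl6 (0.899) came first, and Shtn1 ranged only from 50.2 to 62.3 while Prdx6 ranged from 7.10 to 860.

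Peroxiredoxins depend on enzymes that return electrons to them, repair them or work beside them. Genes of such enzymes, of their regulators and of the oxidative stress response, 30 in all, were listed in 5 groups. Of these, 26 were tested, Txnrd2, Gpx7 and Hmox1 were below the filter and Gclm was not analysed here. None of the 26 was called in any comparison with limma or edgeR, and 2, 0 and 2 of them had an unadjusted p under 0.05 in Prm2-/- against Prm2+/+, Prm2+/- against Prm2+/+ and Prm2-/- against Prm2+/-. DESeq2 called 0, 0 and 1 (Txnip, higher in Prm2-/-) over 9 libraries. In Prm2-/- against Prm2+/+ testes, 13 of 26 had an LFC above 0, with a median of 0.01. By group, the LFC in that comparison was above 0 for 5 of 9 genes of the recycling list, among them Txnip. This list held thioredoxins, glutaredoxins, their reductases, Gstp1 and Txnip, an inhibitor of thioredoxin. The LFC was above 0 for 3 of 9 genes of the endoplasmic reticulum list, 2 of 3 sperm thioredoxins and 3 of 4 genes of the NRF2 axis.

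Txnip, which binds and inhibits thioredoxin, had the largest LFC of the tested partner genes in both comparisons with Prm2-/- testes. It was counted at 6.65, 10.7 and 35.4 in Prm2+/+, at 3.95, 11.0 and 9.72 in Prm2+/- and at 283, 16.2 and 246 in Prm2-/- libraries. Thus 2 of 3 Prm2-/- libraries were high, and the third lay within the Prm2+/+ range. The LFC of Prm2-/- was 3.63 ± 1.09 against Prm2+/- (95% interval 1.11 to 6.16, limma adjusted p = 0.792) and 2.85 ± 1.09 against Prm2+/+ (0.32 to 5.37, adjusted p = 0.641).

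Txnrd1, the cytosolic thioredoxin reductase, was counted at 36.1, 128 and 34.3 in Prm2+/+, at 63.3, 35.6 and 28.3 in Prm2+/- and at 113, 111 and 127 in Prm2-/- libraries. All Prm2-/- values were above all Prm2+/- values (LFC 1.52, 95% interval 0.35 to 2.69, limma adjusted p = 0.870), as for 7.47% of all tested genes, and Prm2+/+ library 2 reached the same level as Prm2-/-. Srxn1, sulfiredoxin, which reduces over-oxidized 2-Cys peroxiredoxins, was counted at 51.3, 56.8 and 144 in Prm2+/+, at 178, 112 and 53.0 in Prm2+/- and at 57.1, 50.7 and 51.7 in Prm2-/- libraries. Its LFC of -0.93 in Prm2-/- against Prm2+/- had an adjusted p of 0.963 with limma. Txn1, cytosolic thioredoxin, was counted at 143, 114 and 35.4 in Prm2+/+ and at 178, 132 and 159 in Prm2+/- libraries, with an LFC of 0.89 between these groups (limma adjusted p = 0.842). The lowest Txn1 value was in Prm2+/+ library 3, as for Prdx3. That library had the fewest recovered counts (3629929). It also held the lowest values of the partner genes Gsr (11.0), Pdia6 (559) and Nfe2l2 (57.5). In the other direction, it held the highest values of Rnaseh2a (2245), Glrx2 (1349) and Pdia3 (961). The Prm2+/+ means of these genes and their LFCs against Prm2+/+ thus lean on this library, and the reason was not tested.

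Pdia3, a disulfide isomerase of the endoplasmic reticulum, was counted at 832, 874 and 961 in Prm2+/+, at 740, 845 and 815 in Prm2+/- and at 714, 730 and 794 in Prm2-/- libraries. The Prm2-/- libraries were all below the Prm2+/+ libraries (LFC -0.25, limma adjusted p = 0.612), as for 7.10% of all tested genes. Against Prm2+/+, the Prm2+/- level of Pdia3 differed by -0.15 (adjusted p = 0.842, limma). Keap1, the repressor of NRF2, was counted at 117, 228 and 137 in Prm2+/+ and at 256, 232 and 233 in Prm2-/- libraries (LFC 0.64, limma adjusted p = 0.696). These groups did not overlap, as for 6.92% of all tested genes with Prm2-/- higher, although Prm2+/+ library 2 came within 4 normalized counts of the lowest Prm2-/- library. Glrx2, a mitochondrial glutaredoxin, was counted at 1073, 1092 and 1349 in Prm2+/+ and at 1059, 1011 and 695 in Prm2+/- libraries, with an LFC of -0.36 (limma adjusted p = 0.842).

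**Figure D4:**
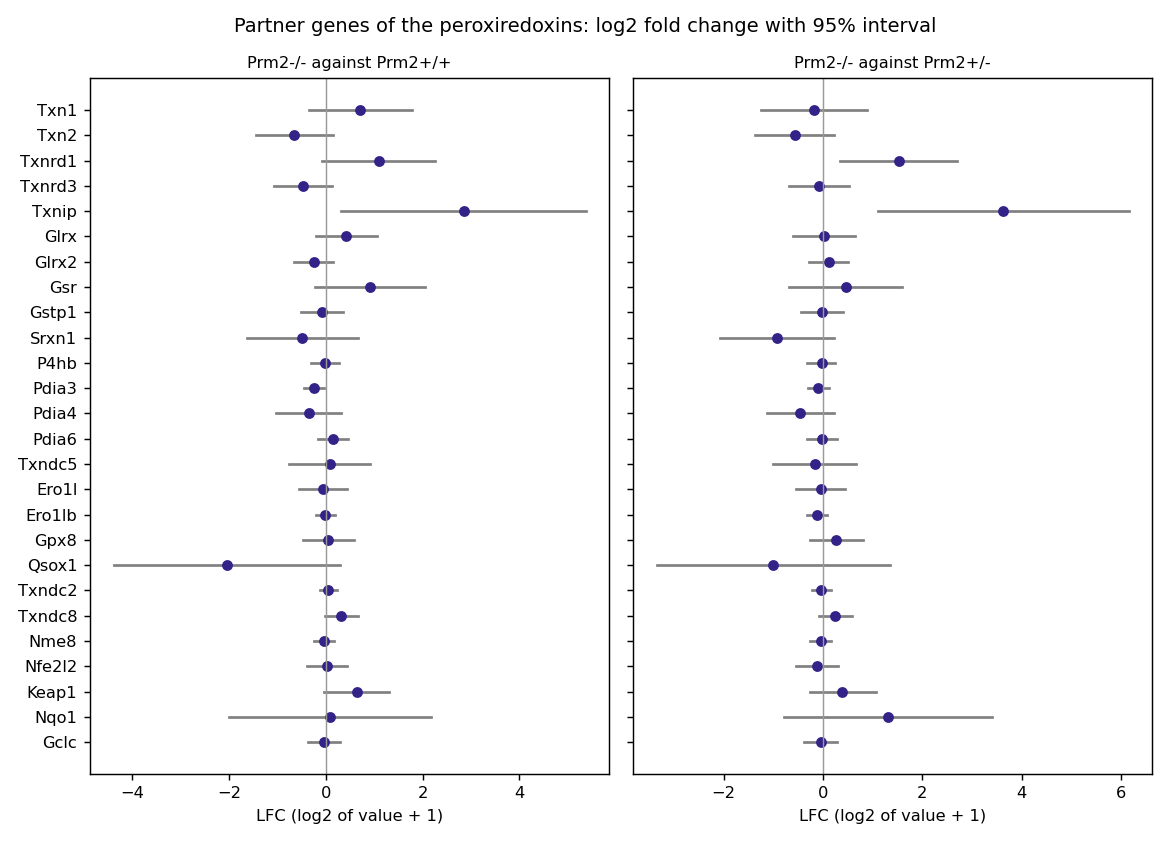
LFC of the 26 tested partner genes on the log2 (normalized count + 1) scale (horizontal axes; point, limma estimate; line, 95% interval), for Prm2-/- against Prm2+/+ on the left and against Prm2+/- on the right. Txnip lies farthest to the right in both panels, at 2.85 and 3.63, with intervals more than 5 units wide.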

How the data were processed

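Testis RNA was sequenced from its 3′ ends (QuantSeq) in 3 libraries per genotype. According to the paper's methods and the submitters' processing notes, reads were trimmed with Trim Galore 0.4.5, mapped to GRCm38 with HISAT2 2.1 and counted per gene with StringTie 1.3.3. The authors removed pseudogenes before testing, and whether the table was filtered in this way was not tested. The deposited table holds a signal per gene, counts that the authors divided by DESeq2 size factors, called normalized counts here. All values (100%, tolerance 0.001) were whole multiples of 1 step per library, so counts were recovered. StringTie derives counts from coverage, so they need not equal reads, and the counting errors given cover counting only.

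Every gene that passed filterByExpr (14893) was fitted with limma 3.58.1 (trend, genotype only, 9 libraries) on log2 (value + 1), since the deposited values are not counts. Calls were set at 0.05 for the p adjusted by Benjamini-Hochberg, together with an absolute LFC above 0.5. LFCs on this scale understate changes of low genes. Alternatives used edgeR 4.0.16 and DESeq2 1.42.0 on recovered counts in R 4.3.3, other pseudocounts (0.5 and 5), filters, TMM scaling, fewer libraries and a replicate block. The fit was tested on simulated data. Named genes were the 6 members, Prm2, genes overlapping a member, partner genes called or with the 3 smallest p in a comparison, and the 2 genes most like each member. Prdx6b was added after its values were seen. The members and lists were chosen with earlier results of these data known. Of the table's gene models, 99.6% were found in the annotation.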

Additional observations from a re-analysis of the deposited data

How the results depend on the processing

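Leaving out each library of the compared groups in turn gave 108 LFCs of the members, of which 100 kept their direction and side of the threshold and 8 turned sign. Those ranges were -0.39 to 0.92 for Prdx3 in Prm2-/- against Prm2+/+, and in Prm2+/- against Prm2+/+ -0.10 to 0.05 for Prdx1, -0.10 to 1.21 for Prdx3, -0.01 to 0.12 for Prdx4 and -0.12 to 0.02 for Prdx5. Of 174 LFCs under the other alternatives, some of which (such as the block) cannot move the LFC, 172 kept both and 2, of Prdx6 in Prm2+/- against Prm2+/+, passed the threshold with DESeq2 (adjusted p 0.0357 with 9 libraries and 0.000554 with 6), which then called 1 member. DESeq2 called 1 partner gene (Txnip) with 9 libraries and 2 (with Txnrd1) with 6 in Prm2-/- against Prm2+/-. Over all genes, calls in Prm2-/- against Prm2+/+ (27) ranged from 9 with at least 10 counts in every library to 165 with DESeq2, those in Prm2+/- against Prm2+/+ (12) from 1 to 66, and those in Prm2-/- against Prm2+/- (26) from 11 to 160. Leaving out 1 library gave 28 to 64, 9 to 44 and 23 to 50 calls. The cause was not tested. Prdx3 and Prdx6 gave no value under the filter of 10 counts. Same-numbered libraries of different genotypes did not deviate together (r from -0.037 to 0.042 in 9 pairs, with 2 of 9 libraries closest to their own number), so the replicate block is no paired test. With the replicate block 0 members were called in each comparison, the LFC of Prdx2 in Prm2-/- against Prm2+/+ was -0.64 (limma adjusted p = 0.634), and 15, 6 and 14 genes were called in all. For Prdx6, the spread between libraries was 90.2% of the mean in Prm2+/- and 161% in Prm2-/-, against counting errors of 4.39% and 7.58%.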
